A study of Homo sapiens with 30 samples.

Results

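The MEF2-, SIX- and EYA-family regulators described here are 9 genes, chosen by symbol: MEF2A, MEF2C and MEF2D, SIX2, SIX4 and SIX5, and EYA1, EYA3 and EYA4. All 9 were found among the 23262 genes of the time-course tables and the 23261 genes of the clone table. RNA sequencing was done on 30 samples of Rh30, an established alveolar rhabdomyosarcoma cell line that carries the PAX3-FOXO1 fusion gene. One set of 20 samples came from the PAX3-FOXO1-FKBP line and the FOXO1-FKBP line, each given 500 nM dTAG for 2, 6, 24 or 72 h or kept in DMSO. FKBP is a degradation tag, and dTAG is a small molecule that directs a tagged protein to the proteasome. The other 10 libraries were from the untreated PAX3-FOXO1-FKBP clones 4, 10, 11 and 12 and from untreated parental Rh30, all labelled DMSO, with 2 libraries each. Every line carries the fusion, each clone is 1 clone, and no source used here says which clone, if any of them, served in the time course.

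MEF2 proteins are MADS-box transcription factors that bind A/T-rich sites in muscle promoters and act together with the myogenic factors MYOD1 and MYOG. SIX-family proteins are homeodomain factors that bind the MEF3 site, and EYA proteins are coactivators with phosphatase activity that have no DNA-binding domain and are brought to DNA by SIX-family proteins. Both families are known for driving the muscle differentiation program, with class IIa histone deacetylases as repressors of MEF2.

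Each time-course column pools both samples of a condition, so a time-course value carries no replicate error. Levels are given as CPM, the share of a library's counts scaled to a fixed total, after TMM scaling, and changes as log2 ratios. Columns held 25863451 to 30466960 counts and clone libraries 17746684 to 26834005 counts. The muscle label held for most markers read: 10 of the 12 in the table were at 1 CPM or more in every time-course column. Of these, MYOD1, DES and MYOG were at 953, 605 and 327 CPM or more throughout. MYF5 was at 0 in all these columns and MYF6 at 0.13 CPM or less. dTAG acts on protein, so no mRNA here checks the loss of the fusion.

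Promoter windows are shown first for MEF2C, the member that rose with dTAG, and for MEF2A, another member with a match to the MEF2 motif. They run from 250 bases before to 50 bases after an annotated start and were taken from RefSeq (GRCh38.p14). Windows of 7 of the 9 members were used, 15 in all, of which 7 belong to MEF2C and 3 to MEF2A. No window of EYA1 or SIX5 was used. The 3 motifs searched on both strands were the MEF2 consensus, the E-box CAGCTG of myogenic factors, and the MEF3 core TCAGGTT. Among all 35116 windows of 300 bases, 2.99% held the MEF2 consensus, 17.9% CAGCTG and 3.37% TCAGGTT. No motif overlapped another. The MYOG window is shown because MYOG is a long-known target of both families. Capitals mark the match.
MEF2C, start with a MEF2 consensus match (chr5:88824295-88824594, - strand): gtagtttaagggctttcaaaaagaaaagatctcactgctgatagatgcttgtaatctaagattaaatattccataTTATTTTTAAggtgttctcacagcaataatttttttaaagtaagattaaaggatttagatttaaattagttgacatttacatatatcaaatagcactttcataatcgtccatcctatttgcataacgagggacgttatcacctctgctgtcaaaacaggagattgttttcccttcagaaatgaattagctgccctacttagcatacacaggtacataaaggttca
MEF2C, start with an E-box CAGCTG (chr5:88785462-88785761, - strand): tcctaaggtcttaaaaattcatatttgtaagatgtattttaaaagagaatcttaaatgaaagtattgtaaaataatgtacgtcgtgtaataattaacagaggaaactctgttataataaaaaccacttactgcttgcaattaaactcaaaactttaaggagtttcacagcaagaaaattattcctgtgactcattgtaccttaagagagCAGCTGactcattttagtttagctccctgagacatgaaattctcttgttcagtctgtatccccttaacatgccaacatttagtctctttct
MEF2A, start with a MEF2 consensus match (chr15:99565734-99566033, + strand): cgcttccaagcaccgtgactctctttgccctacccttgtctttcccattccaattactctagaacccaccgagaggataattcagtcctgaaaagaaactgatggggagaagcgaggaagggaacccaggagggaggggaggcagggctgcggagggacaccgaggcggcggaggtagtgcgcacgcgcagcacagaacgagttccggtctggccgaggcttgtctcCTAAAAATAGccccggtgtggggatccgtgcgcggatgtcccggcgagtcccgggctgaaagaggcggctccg
MYOG, start with a MEF3 core (chr1:203085963-203086262, - strand): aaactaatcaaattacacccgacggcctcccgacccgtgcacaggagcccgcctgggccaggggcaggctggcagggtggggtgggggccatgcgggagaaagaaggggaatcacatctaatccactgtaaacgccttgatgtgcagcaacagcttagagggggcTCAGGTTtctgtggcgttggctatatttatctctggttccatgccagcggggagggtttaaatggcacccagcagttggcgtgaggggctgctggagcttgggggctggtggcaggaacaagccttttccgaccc

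In the MEF2C windows the MEF2 match began at position 76 of 300 (175 bases before the start) and the E-box at position 210, 41 bases before its start. Another MEF2C window, at chr5:88884487-88884786, held CAGCTG at position 65. The MEF2A match began at position 228, 23 bases before the start. The MYOG match to TCAGGTT began at position 166, 85 bases before the start. MEF2D held 1 CAGCTG, and the windows of SIX2, SIX4, EYA3 and EYA4 held none of the 3 motifs. None of the member windows used held TCAGGTT, and EYA1 and SIX5 were not searched. The matches describe these letters only, and the tables count whole genes, so which MEF2C start was used was not measured.

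**Figure D1:**
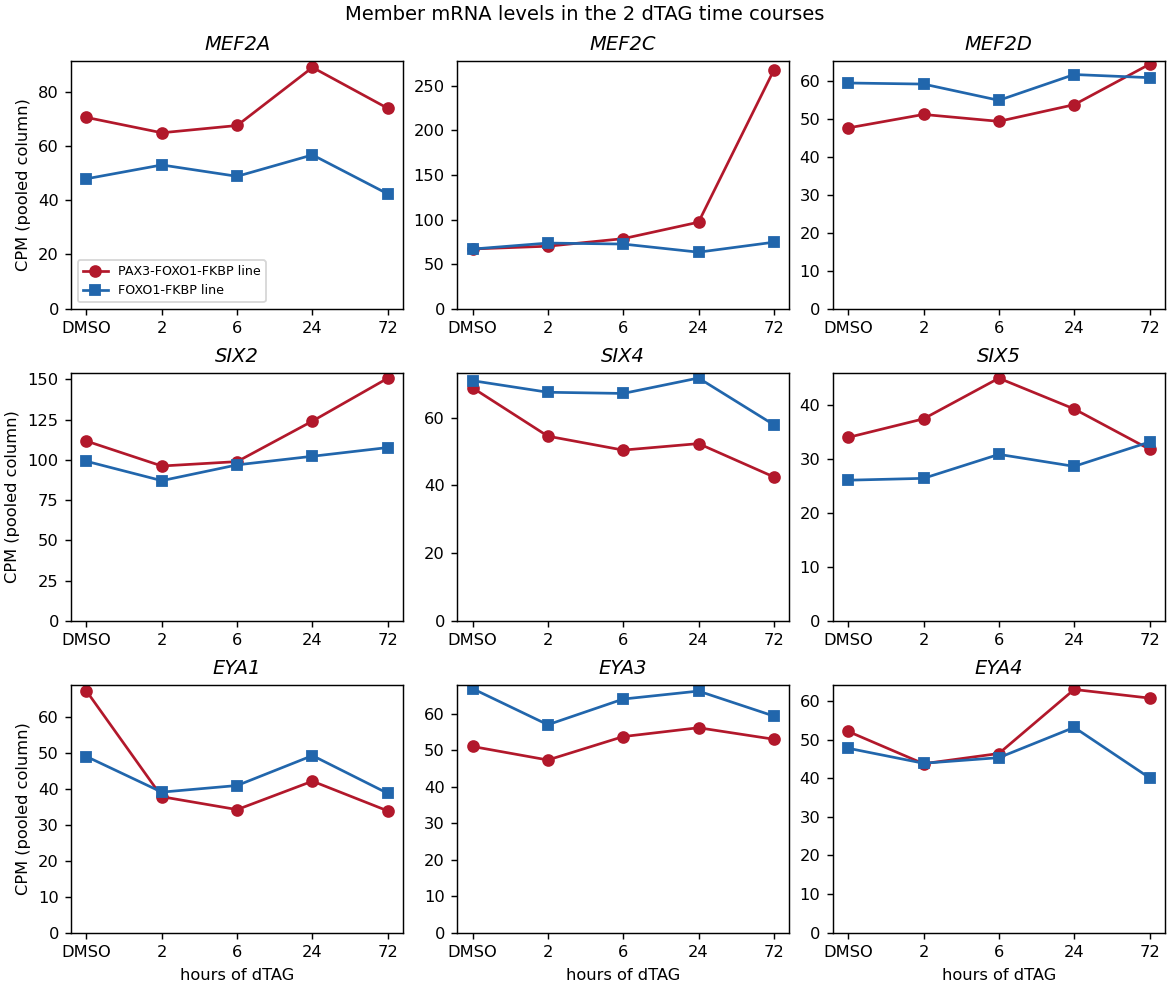
Level of each of the 9 genes (CPM of 1 pooled column, y axis from 0) in DMSO and after 2, 6, 24 and 72 h of dTAG (x axis, evenly spaced) in PAX3-FOXO1-FKBP cells (circles) and the FOXO1-FKBP line (squares). MEF2C reached 267 CPM at 72 h in PAX3-FOXO1-FKBP cells, and its other 9 columns lay at 97.0 CPM or below.

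The time course addresses what follows when dTAG is given to cells whose fusion protein carries the tag. MEF2C, the family member known for its part in sarcomere assembly and also expressed in B cells, was the member that rose. In PAX3-FOXO1-FKBP cells it was at 67.0 CPM in DMSO and at 70.1, 78.6, 97.0 and 267 CPM after 2, 6, 24 and 72 h of dTAG. In FOXO1-FKBP cells it was at 66.9 CPM in DMSO and then at 73.6, 72.5, 63.4 and 74.6 CPM. The untreated columns of both lines stood at a 1.00-fold ratio, and all 4 dTAG columns of the PAX3-FOXO1-FKBP line lay above its DMSO column. The log2 changes in that line were 0.07, 0.23, 0.53 and 2.00, and the step between 24 and 72 h was 2.76-fold. The slope on log2 of hours plus 1 was 0.30 ± 0.06 (SE), with an adjusted p of 0.0325 by edgeR's quasi-likelihood test over all genes. In PAX3-FOXO1-FKBP cells 4.59% of 12254 genes were called by this test and 2.32% were called higher, against 1 of 9 members. Unadjusted, 5 of 9 members and 17.2% of genes were under 0.05. The call needed the 72 h column: without it the slope was 0.12, with an adjusted p of 0.185.

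The slope of MEF2C exceeded that of the FOXO1-FKBP line by 0.30 ± 0.08, with an adjusted p of 0.0861 by edgeR, so the difference between the lines did not pass the threshold. DESeq2 gave an adjusted p of 0.00744 for the same difference. By edgeR, 0 of 9 members and 2.23% of 12241 genes were called for a difference between lines, and 1 member was under 0.05 unadjusted. DESeq2 called 1 member. At 72 h MEF2C was 1 of 9 members at least 2-fold above DMSO in PAX3-FOXO1-FKBP cells, against 3.26% of all genes.

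Markers of other cells were read beside MEF2C, since B cells express it. The 32 B-lineage markers summed to 43.6 CPM at 72 h of dTAG and 111 CPM in DMSO, with 14 and 12 of them at 0 and MS4A1, which encodes CD20, at 0 in both columns. FCRLA, an Fc receptor-like gene, fell to 13.1 CPM at 72 h, against 91.1 CPM in DMSO (adjusted p = 0.00642, edgeR). That fall was larger than the fall of the sum, so the other markers together were higher at 72 h. POU2F2, a B-cell transcription factor gene, rose to 9.85 CPM at 72 h, against 2.07 CPM in DMSO (adjusted p = 0.0125). At 2 h of dTAG the B-lineage sum was 175 CPM, 6 of the 32 markers were at 0, and MS4A1 stood at 7.43 CPM, while MEF2C was at 70.1 CPM. The 15 pan-leukocyte markers summed to 180 CPM at 2 h and 143 CPM in DMSO, with 0 and 5 at 0 and 12 and 6 at 1 CPM or more. Among them PTPRC was at 6.23 CPM at 2 h and 0 in DMSO, and LAPTM5 at 71.3 and 84.7 CPM. That 2 h column is 1 of the 4 in which MEF2C lay above DMSO. The source of these transcripts was not tested. The muscle marker sum rose as well: the 13 summed to 11098 CPM at 72 h, 8229 CPM at 24 h and 4712 CPM in DMSO. At 72 h and in DMSO, 1 of the 12 in the table was at 0. By the slope test 6 of 10 tested muscle markers rose and 0 fell. MYOD1 was lower, at 953 CPM at 72 h and 1554 CPM in DMSO. The 8 fibroblast markers summed to 947 CPM at 72 h and 655 CPM in DMSO, none at 0, with the collagen gene COL1A1 and the receptor gene PDGFRB called higher and PDGFRA called lower. The 7 neuronal markers summed to 101 CPM at 72 h and 46.2 CPM in DMSO, with 4 and 5 at 0 and the tubulin gene TUBB3 called higher. COL3A1 made up 861 and 614 CPM of the fibroblast sums, and TUBB3 78.1 and 30.3 CPM of the neuronal ones. The part of these markers' cells in the values of MEF2C was not tested. In bulk RNA, a changed share of cells of a type and a changed amount of mRNA per cell cannot be told apart.

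The genes whose log2 levels most resembled those of MEF2C over the 10 time-course columns were the plasma membrane calcium pump ATP2B1 (Pearson r = 0.983), the small muscle protein SMPX (0.971) and the Z-disc protein MYOZ2 (0.970). The columns come from 2 lines and share their DMSO columns, and the single high column weighs heavily in each r. MYOZ2 was at 13.4 CPM in DMSO and at 15.7, 12.8, 17.0 and 63.2 CPM after 2, 6, 24 and 72 h of dTAG in PAX3-FOXO1-FKBP cells. Like MEF2C, it was high in the 72 h column.

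MEF2D, the member with a broad expression, had smaller shifts. It was at 47.5 CPM in DMSO and at 51.1, 49.3, 53.7 and 64.3 CPM over the dTAG times in PAX3-FOXO1-FKBP cells. In FOXO1-FKBP cells it was at 59.4 CPM in DMSO and at 59.1, 54.8, 61.6 and 60.8 CPM. The 72 h log2 change in PAX3-FOXO1-FKBP cells was 0.43, and its slope of 0.06 ± 0.02 did not pass (adjusted p = 0.215, edgeR). MEF2A, which is abundant in differentiated muscle, was highest at 24 h in both lines, at 88.9 and 56.7 CPM. It was back at 73.8 CPM at 72 h, beside 70.5 CPM in DMSO, in PAX3-FOXO1-FKBP cells (adjusted p = 0.545).

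Among the SIX-family genes, SIX4, a homeodomain factor of muscle precursors, was below its DMSO column at all 4 times. It was at 68.9 CPM in DMSO and at 54.6, 50.5, 52.4 and 42.5 CPM in PAX3-FOXO1-FKBP cells after 2, 6, 24 and 72 h of dTAG. The FOXO1-FKBP line had 71.0 CPM in DMSO and then 67.6, 67.2, 71.8 and 58.0 CPM. The 4 dTAG columns of the PAX3-FOXO1-FKBP line, at 54.6 CPM or less, were below every column of the FOXO1-FKBP line, at 58.0 CPM or more. The share of all genes separated in this way was not counted, so nothing particular to SIX4 is read from it. The slope of -0.09 ± 0.03 had an adjusted p of 0.0934 by edgeR and 0.0382 by DESeq2, and the slopes of the lines did not pass for a difference (adjusted p = 0.509, edgeR).

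SIX2, known for keeping kidney progenitors undifferentiated, was at 111.7 CPM in DMSO and at 96.2, 98.9, 124 and 150.7 CPM in PAX3-FOXO1-FKBP cells. In FOXO1-FKBP cells it was at 99.1 CPM in DMSO and at 87.1, 96.9, 102 and 107.6 CPM. Both lines dipped at 2 h and were highest at 72 h, and neither slope passed (adjusted p = 0.243 and 0.851, edgeR). SIX5, which lies next to the myotonic dystrophy gene DMPK, was at 34.0 CPM in DMSO and peaked at 45.0 CPM at 6 h in PAX3-FOXO1-FKBP cells, and was at 31.8 CPM at 72 h. Its slope there did not pass (adjusted p = 0.909, edgeR).

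Among the EYA genes, EYA1, a coactivator in muscle and ear development, was also below its DMSO column at all 4 times. It was at 67.2 CPM in DMSO and at 37.8, 34.2, 42.1 and 33.9 CPM after 2, 6, 24 and 72 h of dTAG in PAX3-FOXO1-FKBP cells. In FOXO1-FKBP cells it was at 49.0 CPM in DMSO and then at 39.1, 40.9, 49.3 and 38.8 CPM. The DMSO column of the PAX3-FOXO1-FKBP line was the highest of the 10, and the FOXO1-FKBP line also stood lower at 2, 6 and 72 h. The log2 changes were -0.83, -0.97, -0.67 and -0.99 in PAX3-FOXO1-FKBP cells and -0.33, -0.26, 0.01 and -0.34 in FOXO1-FKBP cells. At 6 and 72 h in PAX3-FOXO1-FKBP cells EYA1 was just inside a 2-fold difference under TMM scaling, and scaling by column totals put it past 2-fold at both times.

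A slope on time suits a drop complete at 2 h poorly, and that of EYA1 did not pass (-0.12 ± 0.05, adjusted p = 0.232, edgeR). A step between DMSO and all 4 dTAG columns, chosen after seeing the data, was -0.86 ± 0.15 for EYA1, with an unadjusted p of 0.000898 and an adjusted p of 0.778. With a single DMSO column that test called 0 of 12254 genes (0%), with 628 under 0.05 unadjusted and 2 members among them. The same step in FOXO1-FKBP cells was -0.22 ± 0.16 (adjusted p = 1.000, edgeR).

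EYA3, a phosphatase coactivator expressed in many tissues, was at 51.0 CPM in DMSO and at 47.3 to 56.1 CPM with dTAG in PAX3-FOXO1-FKBP cells. EYA4, known from inherited deafness and heart muscle disease, was at 52.1 CPM in DMSO and at 43.7, 46.4, 62.9 and 60.7 CPM. Neither slope passed (adjusted p = 0.672 and 0.367, edgeR).

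In FOXO1-FKBP cells 0 of 9 members and 0 of 12061 genes (0%) had a slope past the threshold by edgeR, with 547 genes and 1 member (SIX5) under 0.05 unadjusted. DESeq2 called 1 gene there and 0 members. SIX5 had a log2 change of 0.35 at 72 h in that line. Over genes, the changes in that column had a Spearman rho of 0.495 with GC content, and with GC and length correction SIX5 stood at 0.13 and MEF2C at 0.36. Without dTAG, the PAX3-FOXO1-FKBP and FOXO1-FKBP lines differed most in MEF2A, at 70.5 and 47.9 CPM, a 1.47-fold ratio. No member was 2-fold apart between these untreated columns, where 10.1% of all genes were.

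Levels of different genes can be set side by side only per transcript length, here in CPM per kb of the longest annotated transcript. SIX2 was the highest member in every condition, at 68.4 CPM per kb after 72 h of dTAG and 50.6 CPM per kb in DMSO in PAX3-FOXO1-FKBP cells. MEF2C ranked second after 72 h of dTAG, at 35.4 CPM per kb, and seventh in DMSO, at 8.86 CPM per kb. EYA1 ranked eighth at 72 h, at 7.83 CPM per kb, and second in DMSO, at 15.5 CPM per kb. The members from EYA1 to SIX5 in DMSO, ranks 2 to 5, lay at 15.5, 12.1, 10.96 and 10.2 CPM per kb, and with 1 column each no spread can be set against these gaps.

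Other genes of the families and their DACH partners were read with the same tests. SIX3, an eye and forebrain regulator, fell, at 7.58 CPM in DMSO and at 6.26, 4.98, 3.83 and 3.17 CPM after 2, 6, 24 and 72 h of dTAG in PAX3-FOXO1-FKBP cells (adjusted p = 0.0170, edgeR). DACH1, a corepressor that binds SIX- and EYA-family proteins, also fell, to 1.92 CPM at 72 h, against 6.95 CPM in DMSO (adjusted p = 0.0337). EYA2 did not pass, at 61.3 CPM at 72 h and 52.5 CPM in DMSO. SIX6 and DACH2 were at or near 0 and MEF2B stayed under 3 CPM in every column.

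**Figure D2:**
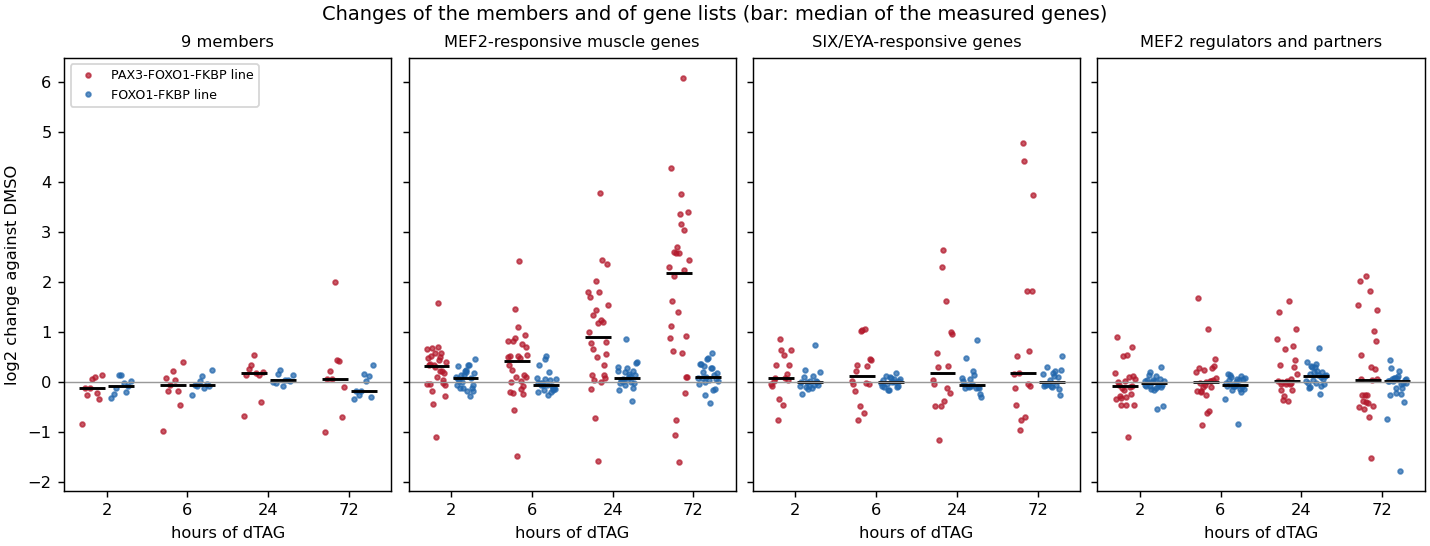
Log2 change against DMSO (y axis) after 2, 6, 24 and 72 h of dTAG (x axis) for the 9 members and 3 gene lists, 1 point per measured gene, with the PAX3-FOXO1-FKBP line left of the FOXO1-FKBP line and a bar at the median. At 72 h the median of the MEF2-responsive genes was 2.18 over 28 genes in PAX3-FOXO1-FKBP cells and 0.11 over 23 genes in FOXO1-FKBP cells. Genes were filtered by mean count within each line, so the 2 sets differ.

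Muscle genes known to respond to MEF2 rose in PAX3-FOXO1-FKBP cells. Of 28 tested, 17 rose and 0 fell by the slope test, which called 2.32% of all genes higher. Genes entered on their mean count over the columns of this line. Low genes could therefore enter through a high 72 h column, which favours rises in this count and in the median. Their median log2 change at 72 h was 2.18, beside -0.02 over all genes. CKM, the muscle creatine kinase and a classical MEF2 target, reached 34.8 CPM at 72 h, against 1.74 CPM in DMSO (adjusted p = 0.0112). MYOM3, a component of the sarcomere's M-band, reached 16.7 CPM, against 0.176 CPM in DMSO (adjusted p = 0.00565). It was at 1.28 CPM or less in every earlier column and met the count filter only through the 72 h column. SMYD1, a muscle methyltransferase, reached 59.0 CPM, against 5.55 CPM in DMSO (adjusted p = 0.00352), and desmin (DES) 1956 CPM, against 636 CPM in DMSO (adjusted p = 0.00741). KLF4 and JUN, which MEF2 controls outside the sarcomere, were lower at all 4 times, at log2 changes of -1.59 and -0.76 at 72 h, and missed the threshold (adjusted p = 0.0529 and 0.0510). HSPB7, a small heat shock protein of muscle, was at a log2 change of -1.05 at 72 h in PAX3-FOXO1-FKBP cells and of 0.01 in FOXO1-FKBP cells. The others called higher were MB, MYOM1, KLHL31, KBTBD10, KBTBD5, XIRP1, HRC, MYOZ1, LMOD3, KLF2, ATP2A1, ACTC1 and HDAC9. This list partly repeats muscle markers already known to move in these data, so its count is no independent support for a role of MEF2C.

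Of 24 regulators and partners of MEF2 tested, 6 rose and 0 fell, beside 2.32% of all genes called higher. Their median log2 change at 72 h was 0.05, beside -0.02 over all genes. MYOG, the differentiation factor that acts with MEF2, rose, at 327 CPM in DMSO and at 475, 685, 1002 and 1160 CPM over the dTAG times (adjusted p = 0.00232). HDAC9, a class IIa deacetylase that represses MEF2 and is itself induced by it, reached 15.5 CPM at 72 h, against 3.51 CPM in DMSO, and like MEF2C its largest step came after 24 h. AKAP6, a scaffold of the muscle nuclear envelope, CAMK2B, a calcium-dependent kinase, and the TEAD-pathway genes VGLL2 and TEAD4 rose as well, with 72 h log2 changes of 1.53, 2.02, 1.44 and 0.81. NCOA2, a coactivator, was at -1.51 at 72 h in PAX3-FOXO1-FKBP cells and at -1.78 in FOXO1-FKBP cells, and passed in neither line.

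Of 16 genes known to respond to SIX- and EYA-family proteins, 5 rose and 0 fell: MYOG, the fast troponins TNNT3 and TNNI2, and the myosin light chains MYLPF and MYL1. MYLPF reached 1041 CPM at 72 h, against 48.8 CPM in DMSO (adjusted p = 0.00209). The median log2 change of the 16 at 72 h was 0.18, beside -0.02 over all genes, of which 2.32% were called higher by the slope test. SIX4 and EYA1 stood at -0.69 and -0.99 in the same column, so these 5 genes were higher in the column where SIX4 and EYA1 were lower.

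**Figure D3:**
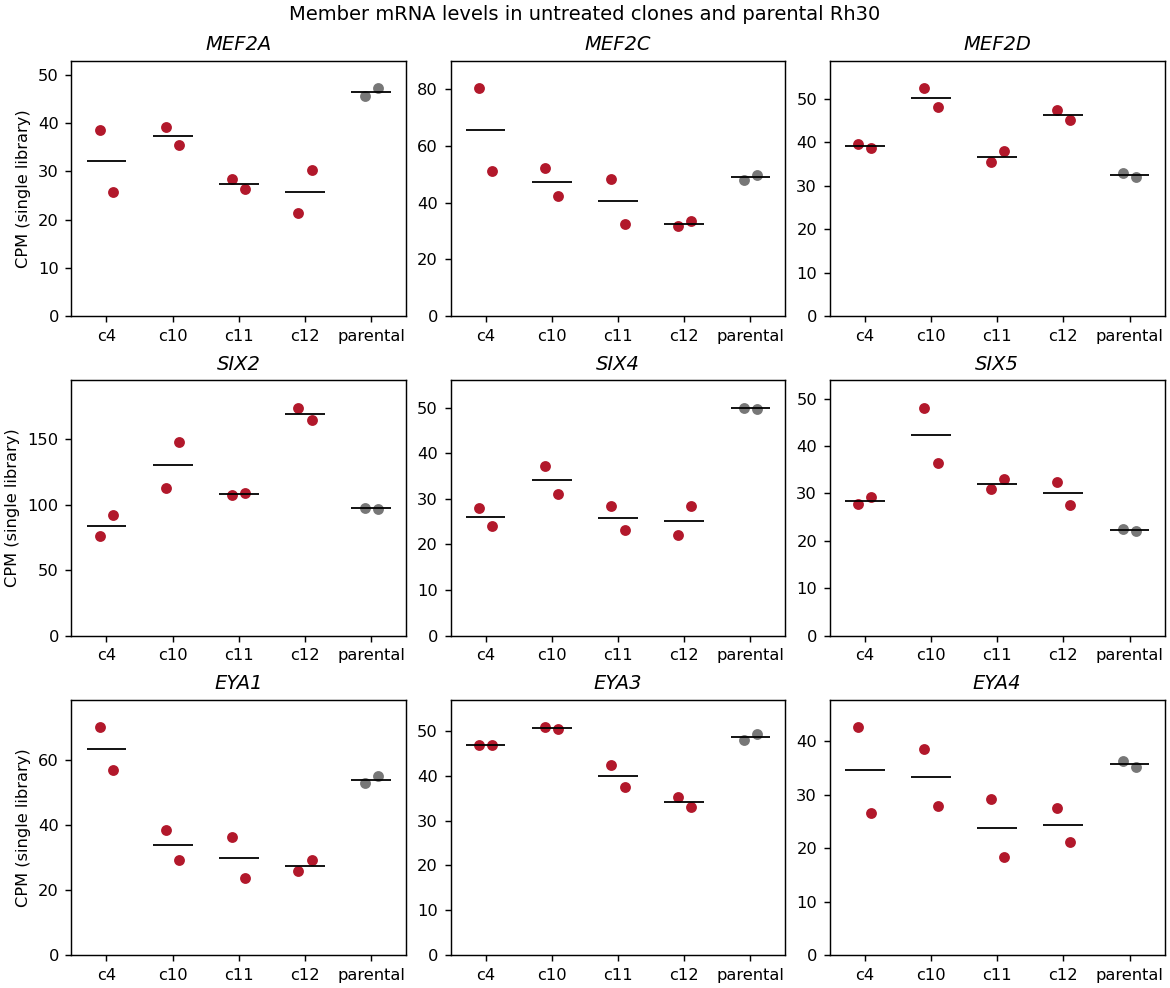
Level of each of the 9 genes (CPM of a single library, y axis from 0) in untreated PAX3-FOXO1-FKBP clones 4, 10, 11 and 12 (c4 to c12) and in parental Rh30 at the right. Points are libraries and bars are means of 2. All 8 clone libraries lie below both parental libraries for SIX4 and MEF2A and above them for SIX5 and MEF2D. The share of all genes separated in this way was not counted.

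The untreated clones show how far the tagged lines differ from parental Rh30 before any dTAG. SIX4 was lower in every clone. It stood at 27.9 and 24.0 CPM in clone 4, 37.2 and 31.0 CPM in clone 10, 28.5 and 23.0 CPM in clone 11 and 22.1 and 28.3 CPM in clone 12, against 49.96 and 49.77 CPM in parental cells. The clone libraries did not overlap the parental pair, and the share of all genes that separate in this way was not counted. The log2 differences were -0.94, -0.55, -0.95 and -0.98, with adjusted p-values of 0.00150, 0.0209, 0.00124 and 0.00104 by edgeR. The call in clone 10 was lost without either parental library or without library 2 of clone 10 (adjusted p up to 0.116), and those in the other clones held in all 10 fits that left out 1 library.

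These counts stand against a broad difference between clones and parental cells. Against parental Rh30, edgeR called 47.4% of 14175 genes in clone 4, 52% in clone 10, 51.6% in clone 11 and 52.6% in clone 12. Of the 9 members, 1, 5, 4 and 7 were called in these clones. Across all 5 groups 8 of 9 members were called for any difference, as were 83.1% of genes. With 9 members, nothing particular to them is read from these counts. The same holds where clone libraries lie apart from the parental pair, since the share of all genes that do so was not counted. Muscle marker sums were 6244 to 9253 CPM in the clone libraries and 3739 and 3742 CPM in parental ones, and the epithelial marker sums 122 and 154 CPM in clone 4 and 52.0 and 53.0 CPM in clone 10, against 5.76 and 5.79 CPM in parental cells. Fibroblast markers summed to 1048 and 1076 CPM in clone 10, against 55.1 and 55.0 CPM in parental cells. Neuronal markers summed to 235 and 199 CPM in clone 12, against 45.7 and 41.9 CPM, and pan-leukocyte markers to 339 and 423 CPM in clone 4, against 129 and 131 CPM in parental cells. A few genes made up most of these sums: COL3A1 at 959 and 993 CPM in clone 10, and TUBB3 at 229 and 195 CPM in clone 12. In clone 4, KRT8 was at 64.4 and 78.4, KRT18 at 54.2 and 69.4, LAPTM5 at 187 and 223 and ARHGDIB at 82.4 and 106 CPM. PTPRC was at 0 and 0.05 CPM in clone 4. PDGFRA was lower in clone 10, at 9.69 and 6.73 CPM, against 14.1 and 14.2 CPM in parental cells. In clone 12, 5 of 7 neuronal markers were at 0. The part of these differences in the members' values was not tested.

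The clone differences also followed base composition. Over 12587 genes, the log2 difference from parental Rh30 had a Spearman rho with transcript GC content of 0.462, 0.508, 0.589 and 0.531 for clones 4, 10, 11 and 12, a description across genes that share 2 parental libraries. The members span much of this range, with 39.0% GC in MEF2C, 40.8% in EYA4, 41.3% in MEF2A, 41.9% in SIX4, 43.3% in EYA1, 46.3% in EYA3, 56.8% in MEF2D, 61.9% in SIX2 and 68.0% in SIX5. The 3 GC-rich members were those called higher, and all those called lower were below 47% GC. A fit that removes the trend with GC content and length, added after seeing the data, is therefore given beside each member.

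**Figure D4:**
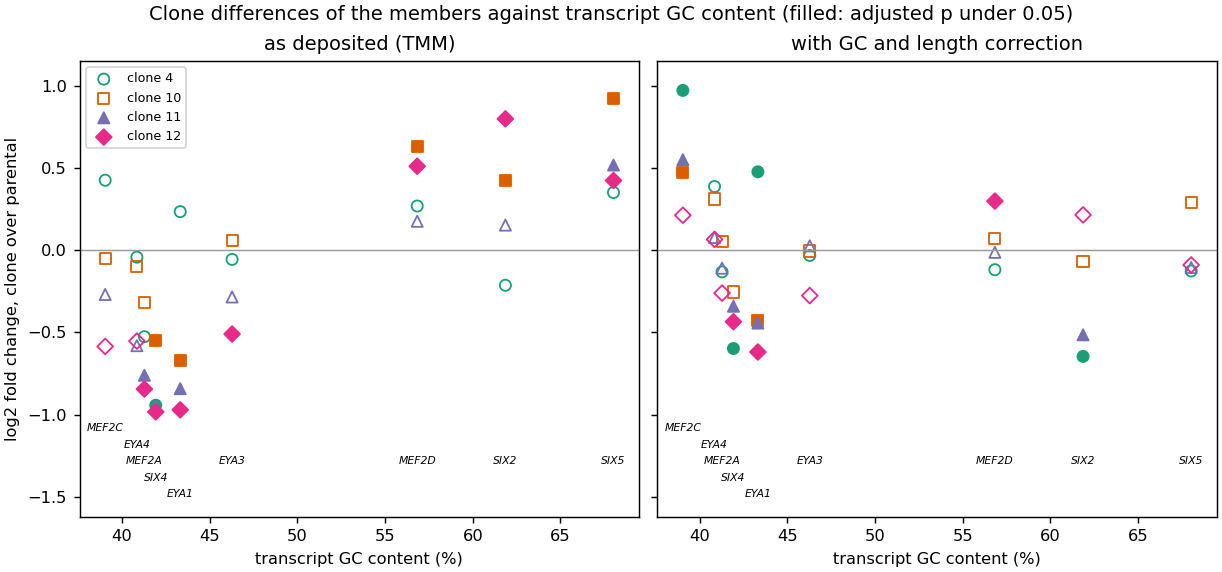
Log2 difference of each clone from parental Rh30 (y axis) for the 9 members against their transcript GC content (x axis, percent), without correction (left) and with GC and length correction (right). Filled symbols had an adjusted p under 0.05 by edgeR. The members above 55% GC lose most calls with the correction, and SIX4 keeps values below 0 in all 4 clones.

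With GC and length correction SIX4 remained lower, at log2 differences of -0.60, -0.25, -0.34 and -0.43 in clones 4, 10, 11 and 12, and passed in 3 (adjusted p = 0.00255, 0.0979, 0.0410 and 0.0127, edgeR). Under this correction 46.1%, 47.5%, 41.7% and 47.3% of genes were called in the same clones.

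EYA1 split the clones. It was at 70.2 and 56.9 CPM in clone 4, 38.6 and 29.2 CPM in clone 10, 36.3 and 23.7 CPM in clone 11 and 25.9 and 29.2 CPM in clone 12, against 52.9 and 55.2 CPM in parental cells. Both libraries of clone 4 lay above the parental ones, and all 6 of the others below. It was lower in clones 10, 11 and 12, with log2 differences of -0.67, -0.84 and -0.97 (adjusted p = 0.0196, 0.00660 and 0.00316, edgeR), and did not pass in clone 4 (0.23, adjusted p = 0.371). In clone 10 the call was lost without either parental library or without library 2 of that clone (adjusted p up to 0.122). With the correction it was lower in the same 3 clones (-0.43, -0.44 and -0.62, all passing) and higher in clone 4 (0.48, adjusted p = 0.0231).

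The clones also differed in EYA1 among themselves. It was lower than in clone 4 by 0.91, 1.08 and 1.21 on the log2 scale in clones 10, 11 and 12 (adjusted p = 0.00957, 0.00324 and 0.00187, edgeR). These 3 differences passed with the correction too (adjusted p = 0.00109, 0.000931 and 0.000361).

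SIX2 was at 75.9 and 92.1 CPM in clone 4, 113 and 148 CPM in clone 10, 107.4 and 108.9 CPM in clone 11 and 174 and 164 CPM in clone 12, against 97.6 and 97.0 CPM in parental cells. Clone 12 was highest and clone 4 lowest, and all 4 clones stood clear of the parental pair. It was called higher in clone 12 (0.80, adjusted p = 0.00146) and clone 10 (0.42, adjusted p = 0.0347, edgeR), and the call in clone 10 stood in 3 of 10 fits that left out 1 library. With the correction both calls ended (0.22 and -0.07), and SIX2 was lower in clones 4 and 11 (-0.65 and -0.51, adjusted p = 0.00153 and 0.00578). Between clones 12 and 4, both libraries of clone 12 were higher, by 1.01 on the log2 scale without correction and by 0.86 with it (adjusted p = 0.000715 and 0.000312).

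SIX5 was higher in every clone, at 27.8 and 29.2 CPM in clone 4, 48.1 and 36.5 CPM in clone 10, 30.9 and 33.1 CPM in clone 11 and 32.4 and 27.6 CPM in clone 12, against 22.5 and 22.2 CPM in parental cells. It passed in clones 10, 11 and 12 (0.92, 0.52 and 0.42, adjusted p = 0.000949, 0.0199 and 0.0458, edgeR) and missed in clone 4 (adjusted p = 0.0952). The call in clone 12 stood in 1 of 10 fits that left out 1 library and that in clone 11 in 6. With the correction none passed, and the values in clones 4, 11 and 12 turned negative (-0.13, -0.10 and -0.09).

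MEF2C was at 80.3 and 51.2 CPM in clone 4, 52.2 and 42.2 CPM in clone 10, 48.4 and 32.6 CPM in clone 11 and 31.8 and 33.4 CPM in clone 12, against 48.0 and 49.9 CPM in parental cells. Replicates of clones 4 and 11 differed widely, and no clone passed against parental cells (adjusted p = 0.141, 0.866, 0.342 and 0.0506, edgeR). In fits that left out 1 library it passed in clone 12 in 5 of 10 (adjusted p down to 0.00958) and in clone 4 in 1 (0.0274, without library 2 of clone 4). It was lower in clone 12 than in clone 4 by 1.01 on the log2 scale (adjusted p = 0.00775). With the correction MEF2C was higher than parental in clones 4, 10 and 11 (0.97, 0.48 and 0.55, adjusted p = 0.000390, 0.0167 and 0.00984), so the direction in clones 10 and 11 turned with the processing. It turned in clone 12 too, at 0.21 with the correction (adjusted p = 0.231) and -0.58 without it. MEF2C stayed lower in clone 12 than in clone 4 (-0.76, adjusted p = 0.00194).

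MEF2A was at 38.6 and 25.8 CPM in clone 4, 39.1 and 35.4 CPM in clone 10, 28.4 and 26.3 CPM in clone 11 and 21.3 and 30.3 CPM in clone 12, against 45.5 and 47.1 CPM in parental cells. It passed in clones 11 and 12 (-0.76 and -0.84, adjusted p = 0.0105 and 0.00613, edgeR), and in clone 11 not without library 2 of the clone or of the parental pair (adjusted p up to 0.0554). With the correction no clone passed (-0.11 and -0.26 in clones 11 and 12). MEF2D was at 39.7 and 38.6 CPM in clone 4, 52.4 and 48.1 CPM in clone 10, 35.5 and 38 CPM in clone 11 and 47.5 and 45.2 CPM in clone 12, against 32.9 and 32.1 CPM in parental cells. All clone libraries lay above the parental pair. It passed in clone 10 (0.63, adjusted p = 0.00214) and in clone 12 (0.51, adjusted p = 0.00643), in clone 12 not without either parental library or library 1 of the clone (adjusted p up to 0.0722). With the correction the value was 0.30 in clone 12 (adjusted p = 0.0359) and 0.07 in clone 10 (adjusted p = 0.589).

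EYA3 was lower in clone 12, at 35.3 and 33.1 CPM, against 47.9 and 49.4 CPM in parental cells (-0.51, adjusted p = 0.00659, edgeR), and this missed without parental library 2 (adjusted p = 0.0634) and with the correction (-0.28, adjusted p = 0.0777). EYA4 ran from 18.4 to 42.7 CPM over the 8 clone libraries, against 36.3 and 35.2 CPM in parental cells, and passed in no clone and not for any difference (adjusted p = 0.143). Its call in clone 11 was gained in 3 of 10 fits that left out 1 library (adjusted p down to 0.0261), that in clone 12 in 2 (down to 0.0349) and that for any difference in 1 (0.0257). With the correction EYA4 was at 0.39, 0.31, 0.08 and 0.07 in clones 4, 10, 11 and 12, above 0 in each, and passed in none. Across the 6 pairs of clones, 14 of 54 member differences passed by edgeR. Of all genes, 23.8% passed between clones 10 and 4, 35.7% between 11 and 4, 30.5% between 12 and 4, 42% between 11 and 10, 35.3% between 12 and 10 and 27.5% between 12 and 11. SIX4, MEF2A and EYA4 passed in none of the 6. With the correction 16 of 54 passed, 10 of them among the 14, where 36.9% to 47.9% of all genes passed per pair. SIX4 was then higher in clone 10 than in clone 4 (0.34, adjusted p = 0.0460, edgeR).

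The gene most like each called member over the 10 clone libraries, by Pearson r of log2 level, was TET1 for MEF2A (0.965), TAF1 for MEF2C (0.965), CDK9 for MEF2D (0.978), TMEM14A for SIX2 (0.966), MTMR9 for SIX4 (0.989), SH2D3C for SIX5 (0.980), FAM8A1 for EYA1 (0.967) and PPT1 for EYA3 (0.985). The next nearest were ATP11B for MEF2A, PHACTR2 and ZNF318 for MEF2C, NUDT16 and COPG1 for MEF2D, LOC100506385 and CLU for SIX2, GOLGB1 and MLL5 for SIX4, FNTB and RAB6B for SIX5, CDC73 and CHAMP1 for EYA1, and VAMP3 and WASF1 for EYA3. The libraries share their clone and their GC trend, so these values describe the libraries only.

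Other family members divided the clones as well. SIX3 was at 20.1 and 24.0 CPM in clone 4, 5.48 and 4.43 CPM in clone 10 and 2.22 and 2.57 CPM in clone 12, against 11.8 and 11.4 CPM in parental cells, and passed in these 3 clones (0.92, -1.22 and -2.27, adjusted p = 0.00172, 0.000441 and 3.48e-05, edgeR). EYA2 was higher in clone 11 (0.79, adjusted p = 0.000532) and lower in clones 10 and 12 (-0.73 and -0.35, adjusted p = 0.000825 and 0.0336). DACH1 was lower in clones 10 and 12 (-1.64 and -2.14, adjusted p = 0.00665 and 0.00201). In clones 4, 10, 11 and 12, 15, 16, 9 and 14 of 29 MEF2-responsive genes were called higher and 1, 4, 2 and 2 lower. Of all genes, 25.1%, 27.8%, 26.5% and 27.8% were called higher in these clones and 22.3%, 24.2%, 25.1% and 24.7% lower.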

How the data were processed

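RNA of Rh30 lines was sequenced. Per the submitters' processing notes, Trimmomatic 0.32, Bowtie2 and Cuffdiff 2.1.1 were used with hg19. What each did, the gene annotation and the handling of strand are not stated in the sources used here. Reads of genes antisense to a member, or shared within a family, cannot be told apart from its own. The authors deposited estimated counts for the time course, 1 column per condition per the file headers, so replicates were pooled by the authors, and 99.4% of values above 0 are not whole. For the clones the authors deposited raw counts, 1 column per library. No column of another series was found.

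The 10 clone libraries were fitted in R 4.3.3 by the quasi-likelihood F test of edgeR 4.0.16 (TMM, filterByExpr minimum count 10, 1 mean per group, 5 residual degrees of freedom). The estimated counts of the time course, rounded, were fitted with a slope on log2(hours + 1) per line (3 residual degrees of freedom, before information is shared across genes) and between lines (6), on genes whose normalised counts averaged 50 or more, so a p-value there reflects how pooled columns scatter about a line. Genes at exactly 0 in a column while all others held at least 10 counts were left out (7 and 8 genes in the PAX3-FOXO1-FKBP and FOXO1-FKBP lines). A gene was called at a Benjamini-Hochberg adjusted p (all tested genes) under 0.05. SEs are approximate, from the F statistic. Changes against DMSO used a prior count of 2. DESeq2 1.42.0 was an alternative. GC content and length came from GENCODE v29, another build than hg19, for 20115 of 23290 symbols. The fits were tested on simulated data.

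Members and lists were chosen with earlier results of these data known. Named genes are the members, the 3 genes most like each called member over the columns, and list genes that were called or past 2-fold. Some genes that this rule or the lists hold are not reported here. No library was a duplicate (chi-square per degree of freedom 1.82 in parental and 13.4 to 48.8 in the clones). No label says whether paired libraries are separate cultures; p-values then measure only the spread between samples, which may be technical.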

Additional observations from a re-analysis of the deposited data

Results flagged for a closer look

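The slope on log2 time differed between the PAX3-FOXO1-FKBP and FOXO1-FKBP lines for 20 genes of the fixed lists by edgeR's test of the difference itself, and for 0 of the 9 members. Over all genes 2.23% of 12241 were called. By list, 1 of 4 tested genes of the rest of the families and 4 of 25 MEF2 regulators and partners were called. So were 11 of 26 MEF2-responsive and 5 of 16 SIX- and EYA-responsive genes, some genes standing in more than 1 list. The lists were chosen with earlier results of these data known. Of the 20, 19 had the higher slope in PAX3-FOXO1-FKBP cells. SIX3 was the exception: its slope in PAX3-FOXO1-FKBP cells minus that in FOXO1-FKBP cells was -0.26 (adjusted p = 0.0178), with -0.21 in PAX3-FOXO1-FKBP cells and 0.06 in FOXO1-FKBP cells. Among the MEF2 regulators and partners, the same difference in slope was 0.13 for CAMK2D, 0.12 for TEAD4, 0.27 for MYOG and 0.33 for AKAP6 (adjusted p between 0.00287 and 0.0441). Among the MEF2-responsive muscle genes, the same difference in slope was 0.70 for CKM, 0.55 for MB, 0.23 for DES, 1.21 for MYOM3, 0.57 for SMYD1, 0.46 for KLHL31, 0.42 for KBTBD10, 0.40 for XIRP1, 0.35 for HRC, 0.51 for LMOD3 and 0.35 for ACTC1 (adjusted p between 0.000883 and 0.0455). Among the SIX- and EYA-responsive genes, the same difference in slope was 0.12 for SLC12A2, 0.26 for TNNI2, 0.69 for MYLPF and 0.81 for MYL1 (adjusted p between 0.00223 and 0.0491). MYOM3 was at 0.67 CPM or less in every FOXO1-FKBP column and was too low for a slope test in that line alone. It met the filter through its 72 h column in PAX3-FOXO1-FKBP cells. MYOG had slopes of 0.31 and 0.03 in the PAX3-FOXO1-FKBP and FOXO1-FKBP lines. The columns are pooled, and the causes of these differences were not tested.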

How the results depend on the processing

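Each clone and time-course result was recomputed with other size factors, filters, tools and subsets. Leaving out the 72 h columns ended the call of MEF2C: 0 members and 123 genes were called for a slope in PAX3-FOXO1-FKBP cells, 1 gene in FOXO1-FKBP cells and 46 for the difference between lines. Slopes that changed sign then were 0.055 for SIX5 in PAX3-FOXO1-FKBP cells, 0.043 for MEF2A, -0.019 for MEF2C, 0.0037 for SIX4, 0.0077 for EYA1, 0.0067 for EYA3 and 0.036 for EYA4 in FOXO1-FKBP cells, and 0.016 for SIX5 for the difference. Without the 2 h columns 64 genes were called for the difference, against 273 with them. DESeq2 called 2 members and 982 genes for a slope in PAX3-FOXO1-FKBP cells, against 1 and 562 by edgeR, 1 gene in FOXO1-FKBP cells, and 1 member and 542 genes for the difference. A step in place of a slope, chosen after seeing the data, called 0 members and 0 genes in PAX3-FOXO1-FKBP cells and 0 genes for the difference, with 628 and 318 genes under 0.05 unadjusted. Its signs differed for SIX5 (0.17) in PAX3-FOXO1-FKBP cells, for MEF2A (0.068), MEF2D (-0.0073) and SIX2 (-0.0094) in FOXO1-FKBP cells, and for MEF2A (-0.0020) in the difference. Scaled by column totals, 1 member was past 2-fold at 6 h and 2 at 72 h. The cause of these shifts was not tested.

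For the clones, other size factors, no filter, DESeq2 and the replicate block each called 2 members in clone 4 in place of 1, MEF2A being added (adjusted p = 0.0443, 0.0294 and 0.00987 with DESeq2's size factors, DESeq2 and the replicate block). EYA3 in clone 10, near 0 throughout, was at -0.015 without a filter and -0.012 with the replicate block. No label ties the library numbers to a shared day or culture. Same-numbered deviations correlated at 0.00869 to 0.0237 between parental cells and clones 4, 10 and 11, and at 0.147 to 0.364 among these clones. Clone 12 carries other numbers and could not enter. Of 27 member differences among clones 4, 10 and 11, 7 passed without and 10 with the replicate block, 6 in both, the call of EYA3 between clones 11 and 10 being lost. Against parental cells, the block moved no other count of called members by over 1.5 times. GC and length correction, chosen after seeing the data, called 4, 2 and 3 members in clones 4, 10 and 12. For any difference it called 5 of 9 members and 82.9% of 12587 genes. It turned the sign of MEF2D (-0.12), SIX5 (-0.13) and EYA4 (0.39) in clone 4, of MEF2A (0.054), MEF2C (0.48), SIX2 (-0.068), EYA3 (-0.0049) and EYA4 (0.31) in clone 10, of MEF2C (0.55), MEF2D (-0.013), SIX2 (-0.51), SIX5 (-0.10), EYA3 (0.027) and EYA4 (0.077) in clone 11, of MEF2C (0.21), SIX5 (-0.089) and EYA4 (0.066) in clone 12, of 10 of the 54 differences between clones, 1 of them called without it (EYA3 at 0.032 between clones 11 and 10), and of the FOXO1-FKBP slopes of MEF2A (0.0073), SIX2 (-0.0020), EYA3 (0.0053) and EYA4 (0.010).

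Leaving out 1 clone or parental library, with a lone sample assumed to vary like the other groups, gave 1 to 2, 2 to 5, 2 to 6 and 4 to 8 called members in clones 4, 10, 11 and 12, 9 to 22 over the pairs of clones, and 3923 to 7027, 4586 to 8135, 4734 to 8069 and 4758 to 8181 called genes in the 4 clones. Signs turned in some of these fits for EYA4 in clone 4 (-0.46 to 0.19) and for EYA3 (-0.011 to 0.077), MEF2C (-0.21 to 0.054) and EYA4 (-0.35 to 0.075) in clone 10. Other alternatives kept each member count within 1.5 times.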
